A study of Mus with 50 samples.

Results

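Cytochrome P450 genes that answer to the nuclear receptors CAR and PXR were followed across 50 mouse livers. The group is a list of 10 genes, namely Cyp2b10, Cyp3a11, Cyp3a13, Cyp3a25, Cyp2c29, Cyp2c37, Cyp2c50, Cyp2c55, Cyp2c68 and Por, and each is read from its probe set with a single gene symbol and the highest median. Of the 10 listed genes 9 were measured, among 22180 genes in all. Por was not analysed here. The livers came from female mice of a C57xFVB backcross that carried the MMTV-Neu transgene, a construct that expresses the proto-oncogene Neu from a mouse mammary tumour virus promoter, active above all in mammary tissue, and every mouse is labelled with breast cancer as comorbidity. The series design ties the choice of mice to extreme grades of ageing, but the labels do not give the grade of any mouse. All 50 livers therefore form 1 group, with no untreated or wild-type group and no inducer given in the labels, and each result is a level, a spread or a covariation over mice. Mice are named by the animal number in their titles, from 7 to 301.

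CAR, encoded by Nr1i3, and PXR, encoded by Nr1i2, are receptors that bind foreign chemicals, steroids and bile acids, pair with the retinoid receptor RXR and switch on genes of drug metabolism in the liver. Cyp2b10 is the usual reporter gene of CAR and Cyp3a11 that of PXR in mice, and many Cyp2c and Cyp3a genes answer to both. The enzymes oxidise drugs, steroids and fatty acids with electrons from the reductase that Por encodes. In RefSeq gene order the 5 Cyp2c genes of the list lie in 1 unbroken run of Cyp2c genes, and Cyp3a11 and Cyp3a25 are next to each other. Cyp3a13 is separated from the other Cyp3a genes by 121 coding genes. Close relatives in such runs can share array probes, so a probe set may read more than 1 of them.

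Values are log2 signals as deposited, in which a difference of 1 is a doubling, and they cannot be set against each other between probe sets. Array medians lay between 3.27 and 3.34 and precision is limited by how many arrays there are. The hepatocyte genes Alb, Ttr, Apoa1 and Cps1 had medians of 13.46, 12.90, 12.05 and 12.11, above those of nearly all other genes. Animals 64, 84, 87 and 235 stand apart, since the median of each one's correlations with other livers falls short of the lower quartile by over 3 interquartile ranges. Animal 64 had a mean of 9.34 over 3 erythroid markers, against 3.69 to 7.14 in the other 46 livers, and animal 235 had a mean of 10.37 over 12 macrophage markers, against 6.33 to 8.66. The mean of 10 hepatocyte markers was 10.15 in animal 64, 11.26 in animal 84, 11.31 in animal 87 and 10.63 in animal 235, against 11.19 to 11.72 in the other 46 livers. Another liver, animal 179, was not apart by that rule but had the lowest value of the 46 for 6 of the 9 genes. Its mean over 22 acute phase genes, 11.79, was the highest of the 46, among which the median was 9.99. Main results are therefore given for 50 livers, for 46 and for 45, the last without animal 179, a choice made after the values were seen. The 46 livers still held high marker values. The mean of 5 pancreatic acinar markers reached 11.40 (median 3.34), and that of 9 mammary epithelium markers 8.05 (median 4.09). At an unadjusted p under 0.05 over 46 livers, 6 of the 9 mammary markers were negative with Cyp3a25 and 0 positive. No acinar marker passed that threshold with any P450 of the list. The part of these markers was not tested. In whole liver, fewer cells of a type and less RNA per cell cannot be told apart.

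The CAR reporter Cyp2b10 was the most variable gene of the list. Its signal was 2.70 in animal 64, the lowest, with a median of 4.95 and a highest value of 7.29 in animal 101. Animals 91 and 89 were next highest at 7.17 and 7.01, and animals 235 and 179 were next lowest at 2.79 and 3.33. The values formed a continuous spread with no separate clusters. Its SD was 1.12 over 50 livers, 1.03 over 46 and 1.0 over 45, so the spread did not rest on the lowest livers. In 50 livers the SD exceeded that of 99.3% of the 11090 genes at or above the median level of 3.61.

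The PXR reporter Cyp3a11 varied widely too, but in other livers. It ran from 6.64 in animal 91 through a median of 8.93 to 10.03 in animals 10 and 270, with an SD of 0.92 over 50 livers and 0.91 over 46. Animal 91, the lowest for Cyp3a11, was among the highest for Cyp2b10. None of the extremes was a liver that stands apart, and animal 87 of those had 9.76. A mixture of 2 components put 15 livers low and 35 high, but the gap was too small for separate clusters by the criterion used.

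Cyp3a13 and Cyp3a25, P450s of the same subfamily, differed from each other in which livers were low. Cyp3a13 had 5.55 in animal 64 and 5.87 in animal 235, a median of 7.64 and a highest value of 9.53 in animal 73. Animal 179, low for most of the list, had 9.25 for Cyp3a13, the second highest value. Cyp3a25 had 4.19 in animal 235, 4.74 in animal 64 and 6.59 in animal 179, a median of 8.08 and a highest value of 9.18 in animal 91. Animals 235 and 64 lay far below all others for Cyp3a25, and the SD was 0.86 over 50 livers, 0.49 over 46 and 0.44 over 45.

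Among the Cyp2c genes, Cyp2c29 and Cyp2c68 held to a narrow band outside a few low livers. Cyp2c29, an abundant liver P450, had 9.19 in animal 64, a median of 11.64 and a highest value of 12.12 in animal 89, and its SD was 0.52 over 50 livers, 0.31 over 46 and 0.24 over 45. Cyp2c68 had 8.02 in animal 64, a median of 10.28 and a highest value of 10.56 in animal 123. Its SD was 0.52 over 50 livers, 0.34 over 46 and 0.28 over 45. Animals 64, 84, 179 and 235 were the 4 lowest for Cyp2c29 and, with animal 10 at 9.10, the 5 lowest for Cyp2c68.

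Cyp2c37 and Cyp2c50, which lie near each other in the run, had wider spreads. Cyp2c37 had 6.22 in animal 235, 7.18 in animal 64 and 7.97 in animal 179, a median of 10.20 and a highest value of 11.06 in animal 60. Those 3 livers lay below all others for Cyp2c37, and the SD was 0.91 over 50 livers, 0.61 over 46 and 0.52 over 45. Cyp2c50 had 6.05 in animal 64, a median of 8.58 and a highest value of 9.87 in animal 289, with an SD of 0.86 over 50 livers, 0.77 over 46 and 0.71 over 45. Cyp2c55, which also oxidises arachidonic acid, had 5.03 in animal 87, a median of 6.19 and a highest value of 7.39 in animal 187. The 4 livers that stand apart were its 4 lowest, and animal 179 was near the middle at 6.37. Over the 9 genes the median SD was 0.86 in 50 livers and 0.61 in 46, against 0.28 and 0.23 for the 11090 genes at or above the median level.

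**Figure D1:**
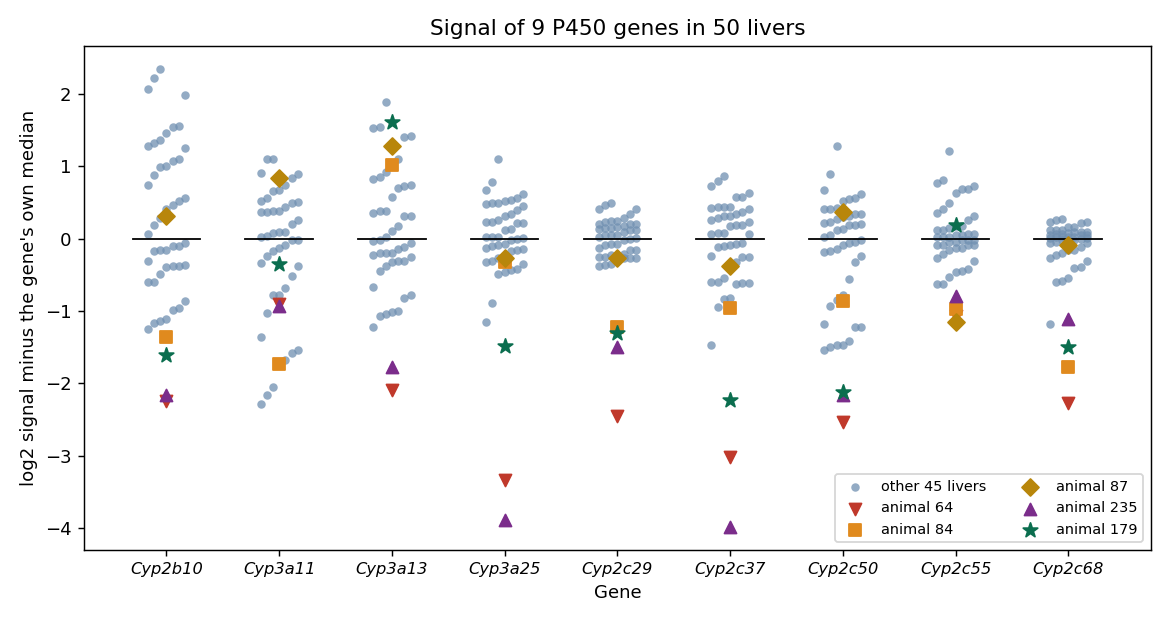
Each column is 1 P450 gene and each point 1 liver, plotted as the log2 signal minus the median of that gene over the 50 livers (line at 0). Coloured symbols mark animals 64, 84, 87 and 235, which stand apart, and animal 179. Animals 64 and 235 are the 2 lowest for Cyp2b10, Cyp3a13, Cyp3a25 and Cyp2c29, whereas the lowest Cyp3a11 values are in other livers.

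Many pairs of the 9 genes went up and down together over all 50 livers, and fewer were called without the lowest livers. Every gene of the array was fitted on each P450 in turn with limma, and a pair was called when both of its fits had an adjusted p under 0.05 over all genes. Over 50 livers 16 of 36 pairs were called, all with a positive correlation, while 7.07% of all genes were called positive over the 9 fits together. Over 46 livers 9 pairs were called, all of them among the 16, with 0.731% of all genes called positive. Over 45 livers 1 pair was called, Cyp2c29 with Cyp2c37, with 0.629% of all genes called positive. The number of pairs with a negative r was 3 over 50 livers, 16 over 46 and 14 over 45.

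Cyp2c29 and Cyp2c37 formed the pair that held in each set of livers. Pearson's r was 0.84 over 50 livers, 0.74 over 46 and 0.61 over 45, and the larger of the 2 adjusted p-values was 1.13e-11, 6e-06 and 0.00499. Spearman's rho was 0.73 over 50 livers. The permutation p of r and of rho was 1e-05, the smallest that 100000 permutations can give. Within the 4 stretches of animal numbers, sought on these data where gene levels step (7 to 79, 84 to 128, 137 to 235 and 253 to 301), r was 0.92, 0.72, 0.94 and 0.70 with all livers and 0.43, 0.35, 0.91 and 0.70 without those that stand apart. The relation was therefore positive in each stretch, and smaller in the first 2 without their low livers.

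Pairs of Cyp3a25 with Cyp2c29, Cyp2c37 and Cyp2c68 were called over 50 and 46 livers but not over 45. Those with Cyp2b10 and Cyp2c50 were called over 50 livers but not over 46, at larger adjusted p-values of 0.0949 and 0.803 by limma. Cyp3a25 and Cyp2c37 had an r of 0.84 over 50 livers, 0.57 over 46 and 0.43 over 45, with larger adjusted p-values of 1.24e-11, 0.00973 and 0.106. Cyp3a25 and Cyp2c29 had an r of 0.79, 0.55 and 0.37 over the same sets. In animals 253 to 301, none of which stands apart, r was −0.04 for Cyp3a25 with Cyp2c37 and −0.16 with Cyp2c29, so these relations were not seen in that stretch. Cyp2c50 kept moderate correlations over 45 livers that did not pass the test in both fits. They were 0.51 with Cyp2c37 and 0.55 with Cyp2c68, with larger adjusted p-values of 0.513 and 0.28.

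Cyp2b10 was nearest to Cyp2c29. Their r was 0.66 over 50 livers, 0.56 over 46 and 0.52 over 45, with larger adjusted p-values of 0.000142, 0.0212 and 0.051. Within the stretches it was 0.84, 0.74, 0.67 and 0.22. Cyp2b10 and Cyp2c37 had an r of 0.58, 0.41 and 0.32, and the pair was called over 50 livers but not over 46 or 45. Cyp2b10 and the PXR reporter Cyp3a11 had an r of 0.02 over 50 livers, −0.12 over 46 and −0.14 over 45. The 2 reporters, with Cyp3a11 read from its single-symbol probe set, thus showed no covariation that passed the test.

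Cyp3a11, Cyp3a13 and, without the livers that stand apart, Cyp2c55 were in no called pair. Over 50 livers the r of Cyp3a11 with the other 8 genes had a median of 0.01, and that of Cyp3a13 a median of 0.20. Over 46 livers the medians were −0.18 for Cyp3a11, −0.06 for Cyp3a13 and −0.04 for Cyp2c55. Cyp2c55 was called over 50 livers with Cyp2c29 and Cyp2c68, at an r of 0.52 and 0.39, and those values were 0.23 and 0.02 over 46.

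**Figure D2:**
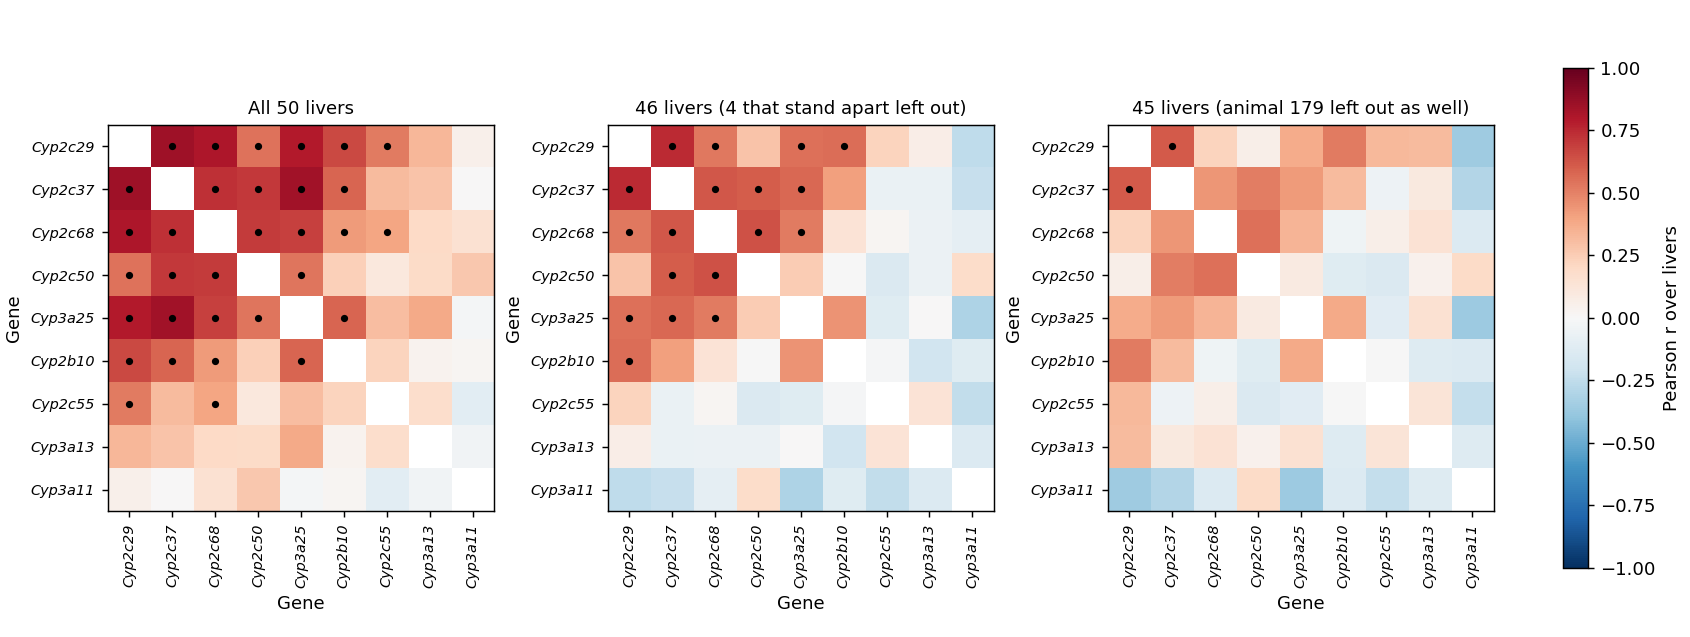
Colour gives Pearson's r between 9 P450 genes over all 50 livers (left), 46 livers without the 4 that stand apart (middle) and 45 livers without animal 179 as well (right); a dot marks a pair called in both of its limma fits. The dots number 16, 9 and 1 pairs, each shown on both sides of the diagonal.

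The receptor gene Nr1i3 itself went with Cyp2c37. Nr1i3, which encodes CAR, had 6.93 in animal 64, 7.37 in animal 235 and 7.76 in animal 179, a median of 9.21 and a highest value of 9.75 in animal 24. The 3 lowest livers for Nr1i3 were thus the 3 lowest for Cyp2c37. Their r was 0.87 over 50 livers, 0.75 over 46 and 0.64 over 45, with an adjusted p of 6.28e-13, 3.66e-06 and 0.00256. Spearman's rho was 0.73 over 50 livers, with a permutation p of 1e-05. Within the stretches r was 0.93, 0.76, 0.90 and 0.83, and without the livers that stand apart 0.61, 0.75, 0.79 and 0.83. Nr1i3 was 1 of the 2 genes outside the list, at or above the median level, with the largest r to Cyp2c37.

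For the other P450s no relation to Nr1i3 was called over 45 livers. Over 50 livers r with Nr1i3 was 0.80 for Cyp2c29, 0.79 for Cyp3a25, 0.72 for Cyp2c68, 0.66 for Cyp2c50 and 0.59 for Cyp2b10, and each of these was called. Over 46 livers Cyp2c29, Cyp2c68 and Cyp3a25 were called, at an r of 0.57, 0.57 and 0.49. Over 45 livers these 3 had an r of 0.32, 0.32 and 0.30, with an adjusted p of 0.209, 0.263 and 0.355. Cyp2c50 had a larger r with Nr1i3, 0.54 over 46 livers and 0.42 over 45, with an adjusted p of 0.163 and 0.784 in its own fit, in which few genes were called. With Cyp2c37 included, 6 of the 9 P450s were positive with Nr1i3 at an unadjusted p under 0.05 in each set. Over 46 livers 1 was negative at that threshold, Cyp3a13 at an r of −0.36. The usual CAR reporter Cyp2b10 had an r with Nr1i3 of 0.45 over 46 livers, with an adjusted p of 0.0926. Cyp3a11, Cyp3a13 and Cyp2c55 were not called with Nr1i3 in any of the 3 sets.

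The gene of PXR, Nr1i2, was called by limma with none of the 9 P450s once the livers that stand apart were left out, and 1 of them, Cyp2c68, had an unadjusted p under 0.05. Nr1i2 had 4.93 in animal 64, a median of 7.6 and a highest value of 8.39 in animal 165. Over 50 livers it was called with Cyp2b10, Cyp3a25, Cyp2c29, Cyp2c37, Cyp2c50 and Cyp2c68, at an r between 0.38 and 0.72. With the PXR reporter Cyp3a11 its r was 0.23 over 50 livers and 0.07 over 46. Cyp2c68 had the largest r with Nr1i2 over 46 livers, 0.35, with an adjusted p of 0.228.

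Cyp2b10 went with genes of varied roles, among them fatty acid and epoxide metabolism. The 5 genes with the largest r over 50 livers were Acss3, a mitochondrial acyl-CoA synthetase, at 0.73, Etfrf1, a regulator of the electron transfer flavoprotein, at 0.72, Gphn, needed for the molybdenum cofactor, at 0.72, Ephx2, the soluble epoxide hydrolase, at 0.68, and the P450 gene Cyp3a59 at 0.68. Over 45 livers they had an r of 0.60, 0.65, 0.68, 0.55 and 0.52, and all 5 were still called, with adjusted p-values from 0.00132 to 0.0412. In this fit 5.88% of genes were called positive over 50 livers, 0.356% over 46 and 0.189% over 45, and 6.18% were called negative over 50. The 3 most negative genes were Tbrg1, a growth regulator, at −0.69, Trmt2a, a transfer RNA methyltransferase, at −0.67, and Lgmn, a lysosomal protease, at −0.65. Tbrg1 kept an r of −0.72 over both 46 and 45 livers, so its relation to Cyp2b10 did not depend on the low livers.

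Cyp2c68 and Cyp2c50 each had its closest partner in the Cyp2c run. Cyp2c68 and Cyp2c69, next but 1 to it in the run, had an r of 0.91 over 50 livers, 0.91 over 46 and 0.86 over 45, with an adjusted p of 7.1e-11 over 45. Spearman's rho was 0.86 and the stretches gave 0.87, 0.99, 0.91 and 0.80. The second partner of Cyp2c68 outside the list was Ugt2a3, a glucuronosyltransferase gene outside the run. Its r was 0.89 over 50 livers, 0.72 over 46 and 0.56 over 45, with an adjusted p of 0.0101 over 45. In the Cyp2c68 fit 11.4% of genes were called positive and 14.6% negative over 50 livers, 0.681% and 0.397% over 46, and 0.478% and 1.43% over 45. A probe set shared by Cyp2c67 and Cyp2c68 followed that of Cyp2c68 at 0.97 over 50 livers and 0.95 over 46, and how far the probes of these relatives read the same transcripts was not tested. Cyp2c50 had its largest r with its neighbour Cyp2c54, 0.76 over 50 livers, 0.72 over 46 and 0.67 over 45, with an adjusted p of 0.00238 over 45. Its second partner outside the list, Cyp2c38 of the same run, had 0.68, 0.65 and 0.59, with an adjusted p of 0.061 over 45. In the Cyp2c50 fit 3.39% of genes were called positive and 4.68% negative over 50 livers, and 0.018% positive over 46. Over 45 livers 1 gene was called, 0.00451% of all, and that gene was Cyp2c54.

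Cyp2c29 and Cyp2c37 went with enzymes outside their own run. Ugt2a3, a glucuronosyltransferase, and Hsd11b1, which regenerates active glucocorticoids, were closest to Cyp2c29, with an r of 0.93 and 0.92 over 50 livers, 0.79 and 0.81 over 46, and 0.66 and 0.66 over 45. Inmt, an N-methyltransferase, was closest to Cyp2c37, at 0.89, 0.76 and 0.66, with an adjusted p of 0.00129 over 45 livers. Inmt had 3.92 in animal 64 and 4.36 in animal 235, a median of 8.53 and a highest value of 9.51. Cyp3a25 was closest to Bche, the plasma butyrylcholinesterase, at 0.87, 0.72 and 0.62, and to Abcc2, a canalicular export pump for conjugates, at 0.86, 0.57 and 0.55. Within animals 253 to 301 r was −0.08 for Bche and 0.11 for Abcc2. In the Cyp3a25 fit 11.2% of genes were called positive and 15.1% negative over 50 livers, 0.649% and 0.491% over 46, and 0.248% and 0.302% over 45.

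The 2 closest partners of Cyp2c55 were Fasn and Elovl6. Fasn, the fatty acid synthase, had 7.19 in animal 84, a median of 9.93 and a highest value of 11.30 in animal 187, which was also the highest for Cyp2c55. Their r was 0.91 over 50 livers, 0.86 over 46 and 0.86 over 45, with adjusted p-values of 1.42e-16, 2.8e-11 and 3.69e-11. Spearman's rho was 0.91, r without the 2 livers farthest from the median of Cyp2c55 was 0.89, and the stretches gave 0.98, 0.91, 0.94 and 0.89. In this fit 7.94% of genes were called positive and 6.6% negative over 50 livers, 0.532% and 0.0631% over 46, and 0.564% and 0.0676% over 45. Elovl6, a fatty acid elongase, had an r of 0.85, 0.75 and 0.76 over the 3 sets. Chosen after their values were seen, Pnpla3, a lipid droplet protein, and Gpam, which starts glycerolipid synthesis, had an r of 0.82 and 0.79 over 50 livers, 0.79 and 0.76 over 46, and 0.79 and 0.77 over 45. Igfbp2, an IGF binding protein chosen in the same way, had −0.24, −0.64 and −0.66, with an adjusted p of 0.253, 0.000967 and 0.000385, so it was not called over 50 livers.

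The level of Cyp2c55 depended on the probe set read. A second single-symbol probe set of Cyp2c55 had a median of 4.42, and its r with the one used was 0.33 over 50 livers and 0.15 over 46. Its r with Fasn was 0.12 over 46 livers, so the relation to Fasn was seen with the brighter probe set and not with the dimmer one. Which of the probe sets follows the Cyp2c55 transcript better was not tested. Cyp2c29 also had a second single-symbol probe set, with a median of 2.33 and an SD of 0.13. Its r with the one used for Cyp2c29 was 0.12 over 50 livers and −0.08 over 46.

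Cyp3a11 had few partners over 50 livers and more without the livers that stand apart. Over 50 livers 1 gene was called, 0.00451% of all, and it was Rgs5, a regulator of G protein signalling found in pericytes, at an r of 0.65. Rgs5 had an r of 0.63 over 46 livers and 0.64 over 45, but 0.03 within animals 253 to 301. It was no longer called with the animal number as covariate (r 0.59, adjusted p 0.0915), with the stretch as block (r 0.55, adjusted p 0.292) or on ranks (adjusted p 0.189). Over 46 livers 0.343% of genes were called positive and 0.383% negative, and over 45 livers 0.374% and 0.464%. Among those were Mug1, a plasma protease inhibitor, at 0.58, and C8b, a complement component, at 0.59, both with an adjusted p above 0.05 over 50 livers. Tm4sf4 and Gpx7 were at 0.54 and 0.52 over 46 livers, with an adjusted p of 0.101 and 0.123 over 50. The most negative by the rule were Klhl7, a ubiquitin ligase adaptor, at −0.57, Ppp6r2, a phosphatase subunit, at −0.62, and Pigbos1, a mitochondrial microprotein, at −0.54 over 46 livers.

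Cyp3a11 went against female-biased genes over 46 livers, while Cyp2c29 went with them. Of 10 measured female-biased liver genes 4 were called negative with Cyp3a11 over 46 livers and 4 over 45, where 0.383% and 0.464% of all genes were, and none over 50. At an unadjusted p under 0.05, 1 was negative over 50 livers, 5 over 46 and 6 over 45. The 4 were the P450 Cyp3a44 at −0.51, the sulfotransferase Sult2a1 at −0.49, the plasma protein A1bg at −0.49 and the thioesterase Acot3 at −0.49 over 46 livers. Over 50 livers the same 4 were at −0.03, −0.30, −0.02 and −0.24. Over 46 livers 4 of the 10 were negative with the animal number at an unadjusted p under 0.05, while Cyp3a11 rose with it (r 0.43). The part of the animal number in these relations was not tested. With Cyp2c29, 9 of the 10 were called positive over 50 livers, 7 over 46 and 5 over 45, where 12.6%, 2.75% and 3.18% of all genes were. Acot3 had an r with Cyp2c29 of 0.81, 0.76 and 0.68 over the 3 sets, and Cyp3a16 had 0.81, 0.65 and 0.67. Cyp3a44 was at 0.81, 0.59 and 0.61.

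The probe set that names Cyp3a11 alone did not follow the shared ones. A pair of probe sets shared by Cyp3a11, Cyp3a41a, Cyp3a41b and Cyp3a44 had medians of 12.44 each, and their r with the single-symbol probe set was 0.15 over 50 livers. Over 46 livers it was −0.27 and −0.28, against 0.84 and 0.86 with Cyp3a44. The shared probe sets therefore moved with Cyp3a44 and not with the probe set read here as Cyp3a11. Over 46 livers both shared sets had an r of 0.33 with Cyp2b10, 0.53 with Cyp2c29, 0.31 with Cyp2c37 and −0.04 with Cyp2c50. The single-symbol probe set had −0.12, −0.25, −0.23 and 0.19 with the same genes. The shared sets were not fitted, so the lack of called pairs applies to the single-symbol probe set.

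Cyp3a11 was the gene of the list most related to the animal number. It rose by 0.443 ± 0.137 (SE) log2 per 100 numbers over 50 livers, with an r of 0.41 and an adjusted p of 0.0562, and by 0.462 ± 0.138 over 46 livers, with an adjusted p of 0.0369. Over 50 livers none of the 9 genes passed the limma test and 1, Cyp3a11, had an unadjusted p under 0.05, while 1.28% of all genes were called positive and 2.24% negative. Over 46 livers Cyp3a11 was the 1 gene of the 9 called, with 1.91% of all genes called positive and 3.1% negative. Cyp3a25 (r −0.34) and Cyp2b10 (r −0.30) fell with the number over 46 livers at an unadjusted p under 0.05. Their adjusted p-values by limma were 0.146 and 0.221. The medians of Cyp3a11 in the 4 stretches were 7.30, 8.94, 8.82 and 9.31, lowest in the first, whose 8 livers ran from 6.76 to 10.03. Within the stretches r with the animal number was −0.11, 0.40, −0.02 and −0.15, and without the livers that stand apart −0.13, 0.48, 0.17 and −0.15, so in the second stretch alone was it as large as over all livers. The stretches were sought on these data. What the animal number stands for is not given in the labels.

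Cyp3a13 had 2 partners by the rule. Glt1d1, a glycosyltransferase domain gene, had an r of 0.69 over 50 livers, 0.64 over 46 and 0.68 over 45, and the stretches gave 0.78, 0.76, 0.55 and 0.69. Tacc2, a centrosome protein, had 0.66, 0.60 and 0.57, with an adjusted p of 0.000885, 0.0353 and 0.183. Of 22 acute phase genes 10 were called positive with Cyp3a13 over 50 livers, where 0.762% of all genes were (and 1.68% negative), and 0 over 46 by limma, where 3 genes or 0.0135% were. At an unadjusted p under 0.05, 16 of the 22 were positive over 46 livers. The median r of the list was 0.39 and 0.38 in those sets. The fibrinogen chains Fga and Fgg were at 0.58 and 0.57 over 50 livers, 0.55 and 0.54 over 46, and 0.50 each over 45. Their adjusted p-values were 0.00848 and 0.0112 over 50 livers, 0.28 and 0.347 over 46, and 0.51 each over 45.

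**Figure D3:**
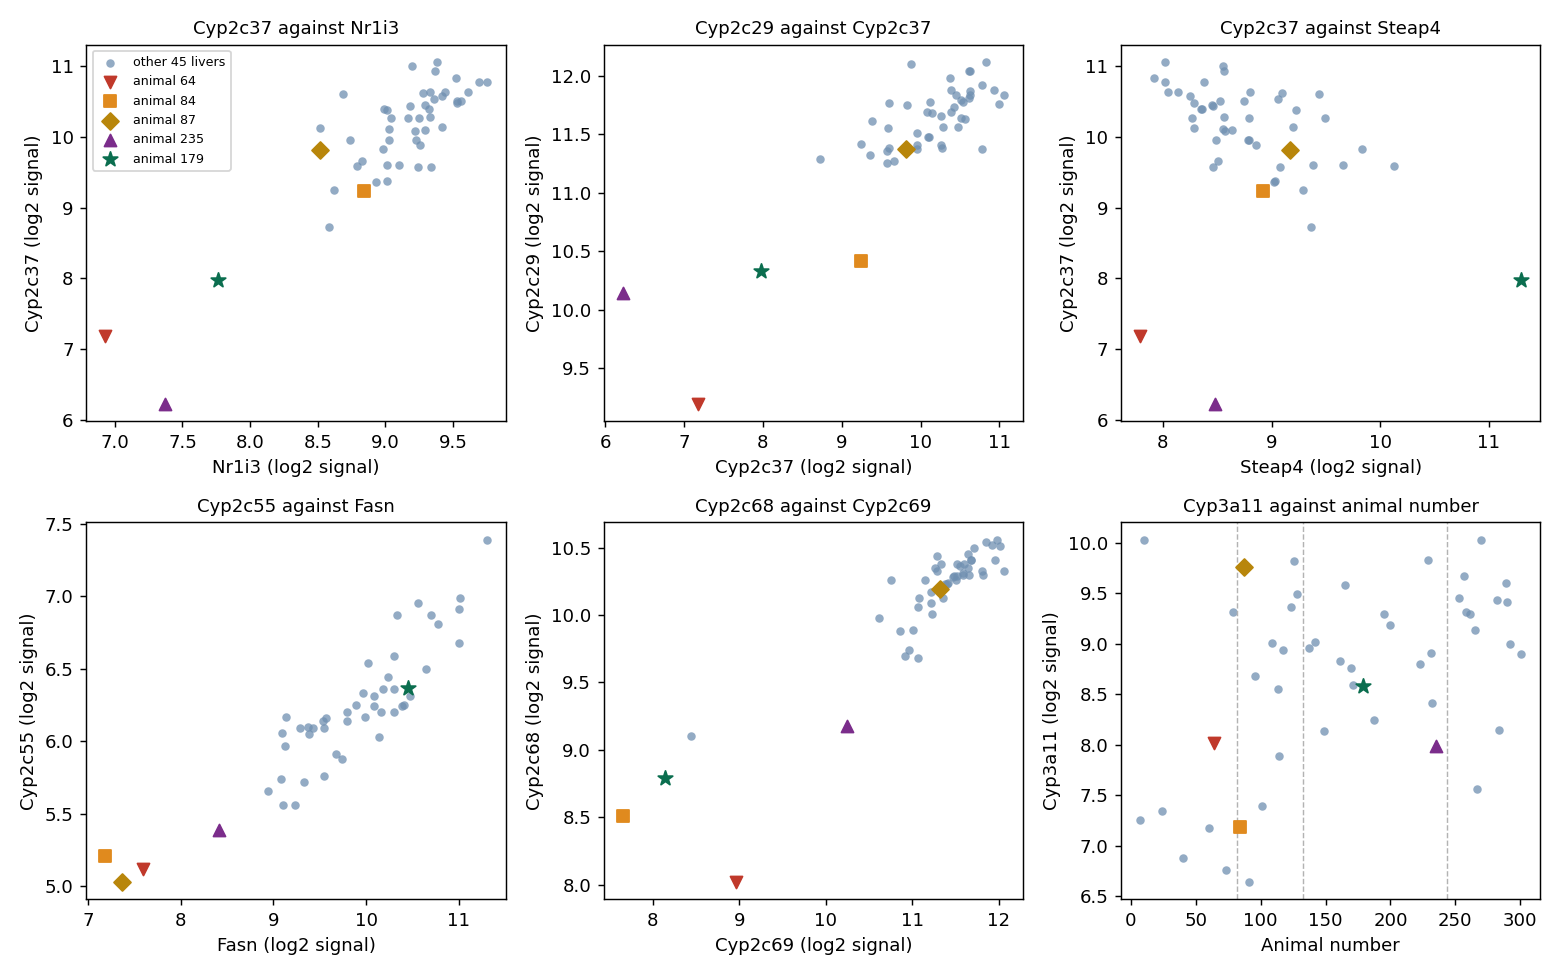
Each point is 1 liver and each axis a log2 signal, except the last panel, whose x axis is the animal number with dashed lines between its 4 stretches. Animals 64, 84, 87, 235 and 179 have their own symbols. Cyp2c55 lies along a line with Fasn in every group of points, and Cyp2c37 falls with Nr1i3 down to animals 179, 64 and 235, while in the Steap4 panel animal 179 lies at the far right and animals 64 and 235 lowest.

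Genes listed as conjugation and transport targets of CAR and PXR went with Cyp2c29 in each set of livers. The list also holds genes of other roles, among them Cyp2a4, Cyp2a5, Cyp1a2, Aldh3a2, Ces2a and Gadd45b. Of 27 measured genes of that list, out of 35, 23 were called positive with Cyp2c29 over 50 livers, 13 over 46 and 12 over 45, where 12.6%, 2.75% and 3.18% of all genes were. The list had a median r of 0.40 with Cyp2c29 over 45 livers, while the median over all genes was −0.01. Ugt2b36, a glucuronosyltransferase, had an r of 0.91, 0.78 and 0.71 over the 3 sets, and the coumarin hydroxylase Cyp2a5 had 0.60, 0.71 and 0.70. Cyp2a5 had a median of 3.41, below the median level of all genes, 3.61. The steroid hydroxylase Cyp2a4 was at 0.77, 0.79 and 0.62, and the carboxylesterase Ces2a at 0.89, 0.71 and 0.58.

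With Cyp2c37, Cyp3a25, Cyp2b10 and Cyp2c68, counts from the same list were lower without the low livers than with them. With Cyp2c37, 20 of the 27 were called positive over 50 livers, 10 over 46 and 5 over 45, where 10.5%, 1.24% and 0.618% of all genes were. With Cyp3a25 the counts over 50, 46 and 45 livers were 22, 5 and 1, where 11.2%, 0.649% and 0.248% of all genes were called positive. With Cyp2b10 they were 21, 4 and 1, where 5.88%, 0.356% and 0.189% were. With Cyp2c68 they were 22, 3 and 0, where 11.4%, 0.681% and 0.478% were. The 1 gene called with Cyp2b10 over 45 livers was Cyp2a5, at an r of 0.54. With Cyp3a11 the direction was the opposite, since none was called over 50 livers, 1 was called negative over 46 and 2 over 45, where 0.383% and 0.464% of all genes were. At an unadjusted p under 0.05, 2 were negative over 50 livers and 9 over 46 and over 45. The 2 called over 45 livers were Cyp2a5 and the aldehyde dehydrogenase Aldh3a2, at −0.52 and −0.50. With the animal number, with which Cyp3a11 rose, 4 of the 27 were negative at an unadjusted p under 0.05 over 46 livers. The part of the animal number was not tested.

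Among 14 measured genes of haem synthesis and electron supply, Pgrmc1, a haem-binding partner of P450s, was closest to Cyp2c29. Its r was 0.91 over 50 livers, 0.72 over 46 and 0.61 over 45, with an adjusted p of 0.00248 over 45. Cyb5a, the cytochrome b5 that can pass electrons to P450s, had 0.76, 0.52 and 0.50 with Cyp2c29, and the mitochondrial ferredoxin Fdx1 had 0.73, 0.52 and 0.47. All 3 were called in each set, where 12.6%, 2.75% and 3.18% of all genes were called positive. Of the 14 genes, 6 were positive with Cyp2c29 in each set at an unadjusted p under 0.05. At that threshold 3 were negative over 50 livers and 0 over 46 and 45. Alad, the second enzyme of haem synthesis, was called negative with Cyp3a11 over 46 and 45 livers, at −0.58 and −0.60, and positive with Cyp2c37 over the same sets, at 0.49 and 0.48.

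Acute phase genes ran against Cyp2c37 outside the livers that stand apart. Over 46 livers 14 of 22 measured genes were called negative, where 1.25% of all genes were, and over 45 livers 6 were, where 1.14% were. Over 50 livers 2 were called negative and 1 positive, where 14.5% and 10.5% of all genes were. Steap4, a metal reductase, had 11.30 in animal 179, the highest, and 7.79 in animal 64, the lowest. Its r with Cyp2c37 was −0.29 over 50 livers, −0.70 over 46 and −0.56 over 45, with an adjusted p of 0.105, 3.7e-05 and 0.01. Lcn2, the siderophore binding lipocalin, had −0.53, −0.69 and −0.63, and its r was negative in each stretch, at −0.50, −0.62, −0.52 and −0.60. The r of Steap4 in the stretches was 0.24, −0.68, −0.33 and −0.63, and without the livers that stand apart −0.61, −0.75, −0.76 and −0.63. Animals 64 and 235 had the lowest Cyp2c37 of all livers, with 7.79 and 8.48 for Steap4.

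Cyp2c29 had the same direction over 46 livers. Over 50 livers 1 of the 22 acute phase genes was called negative with Cyp2c29, where 15.6% of all genes were. Over 46 livers 9 of the 22 were, where 1.33% of all genes were, and over 45 livers 2 were called negative and 1 positive, where 1.57% and 3.18% were. The haemopexin gene Hpx had an r of −0.60 over 46 livers and −0.57 over 45, and the haptoglobin gene Hp −0.56 and −0.43. With Cyp2b10, Hpx and Apcs were called negative over 46 livers, and over 45 livers Hpx was, at −0.52. No acute phase gene was called with Cyp3a11, Cyp3a25, Cyp2c50 or Cyp2c55 over 46 or 45 livers by limma. At an unadjusted p under 0.05 over 46 livers, 4 were positive with Cyp3a11, and 9, 8 and 1 were negative with Cyp3a25, Cyp2c50 and Cyp2c55. Cyp2c68 shared the negative direction, with 12 of the 22 negative at that threshold over 46 livers and 5 over 45, and 0 positive.

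Neutrophil markers ran against Cyp2c37, Cyp2c29 and Cyp2c68, and at an unadjusted threshold against Cyp2c55 too. All 12 listed markers were measured, and their mean ran from 3.15 to 4.97 over the 46 livers, close to the median level of all genes. With Cyp2c37, 9 of the 12 were called negative over 50 livers, 6 over 46 and 5 over 45, where 14.5%, 1.25% and 1.14% of all genes were. With Cyp2c29 the counts were 8, 3 and 7, where 15.6%, 1.33% and 1.57% were. With Cyp2c68 they were 7, 2 and 6, where 14.6%, 0.397% and 1.43% were. With Cyp2c55, 10, 9 and 10 of the 12 were negative at an unadjusted p under 0.05 over 50, 46 and 45 livers. Cyp2c55 had 1 negative acute phase gene at that threshold over 46 livers, so the markers did not go only with the acute phase relation. S100a8, a calcium-binding protein of neutrophils, had an r with Cyp2c37 of −0.56 over 46 livers and −0.55 over 45, and Mpo, the myeloperoxidase, −0.53 and −0.58. Endothelial markers moved with them too: of 10 measured, with a mean between 6.26 and 7.98 in the 46 livers, 0 were called with Cyp2c29 or Cyp2c37 over 46 livers by limma (7 and 5 were negative at an unadjusted p under 0.05), and 7 and 4 were called negative over 45, at the shares of all genes just given. Over 50 livers 3 and 4 were called negative. Pecam1, an adhesion molecule of endothelium, had an r over 45 livers of −0.54 with Cyp2c29 and −0.53 with Cyp2c37. The part of these cells in the relations was not tested.

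Some macrophage markers were called negative with Cyp2b10 and positive with Cyp3a11. Most endothelial markers had those directions over 46 livers at an unadjusted p under 0.05. Of 12 measured Kupffer cell and macrophage markers 3 were called negative with Cyp2b10 over 46 livers and 3 over 45, where 0.252% and 0.23% of all genes were, and 5 over 50, where 6.18% were. The 3 were the complement gene C1qa at −0.53 and −0.56, the scavenger receptor Marco at −0.51 and −0.61, and Cd5l, a secreted protein of tissue macrophages, at −0.50 and −0.55. The negative direction was not confined to Cyp2b10. At an unadjusted p under 0.05, 10, 10 and 11 of the 12 were negative with Cyp2b10 over 50, 46 and 45 livers. With Cyp3a25 the counts were 11, 3 and 7, with Cyp2c37 10, 1 and 7, and with Cyp2c29 4, 1 and 7. With Cyp3a11 C1qa and Cd5l were called positive, each at 0.50 in both sets, where 0.343% and 0.374% of all genes were, and none was called over 50 livers by limma, where 5 were positive at an unadjusted p under 0.05. Of 10 endothelial markers, 7 over 46 livers and 8 over 45 were negative with Cyp2b10 at an unadjusted p under 0.05, and 7 were positive with Cyp3a11 in both sets. No share of all genes is given at that threshold. After adjustment 1 was called with Cyp3a11 in both sets, Pecam1 at 0.52, and with Cyp2b10 Cdh5 was called over 45 livers, at −0.53. Of 11 stellate cell and fibroblast markers, 5 were positive with Cyp3a11 at an unadjusted p under 0.05 over 46 and over 45 livers, and 0 were called. The mean of the 12 macrophage markers ran from 6.33 to 8.66 in the 46 livers, and the part of these cells was not tested. Over 46 livers 4 of the 12 macrophage and 4 of the 10 endothelial markers were positive with the animal number at an unadjusted p under 0.05. Cyp3a11 rose with the animal number too, and Cyp2b10 fell with it over 46 livers (r −0.30, adjusted p 0.221 by limma). The part of the animal number was not tested.

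**Figure D4:**
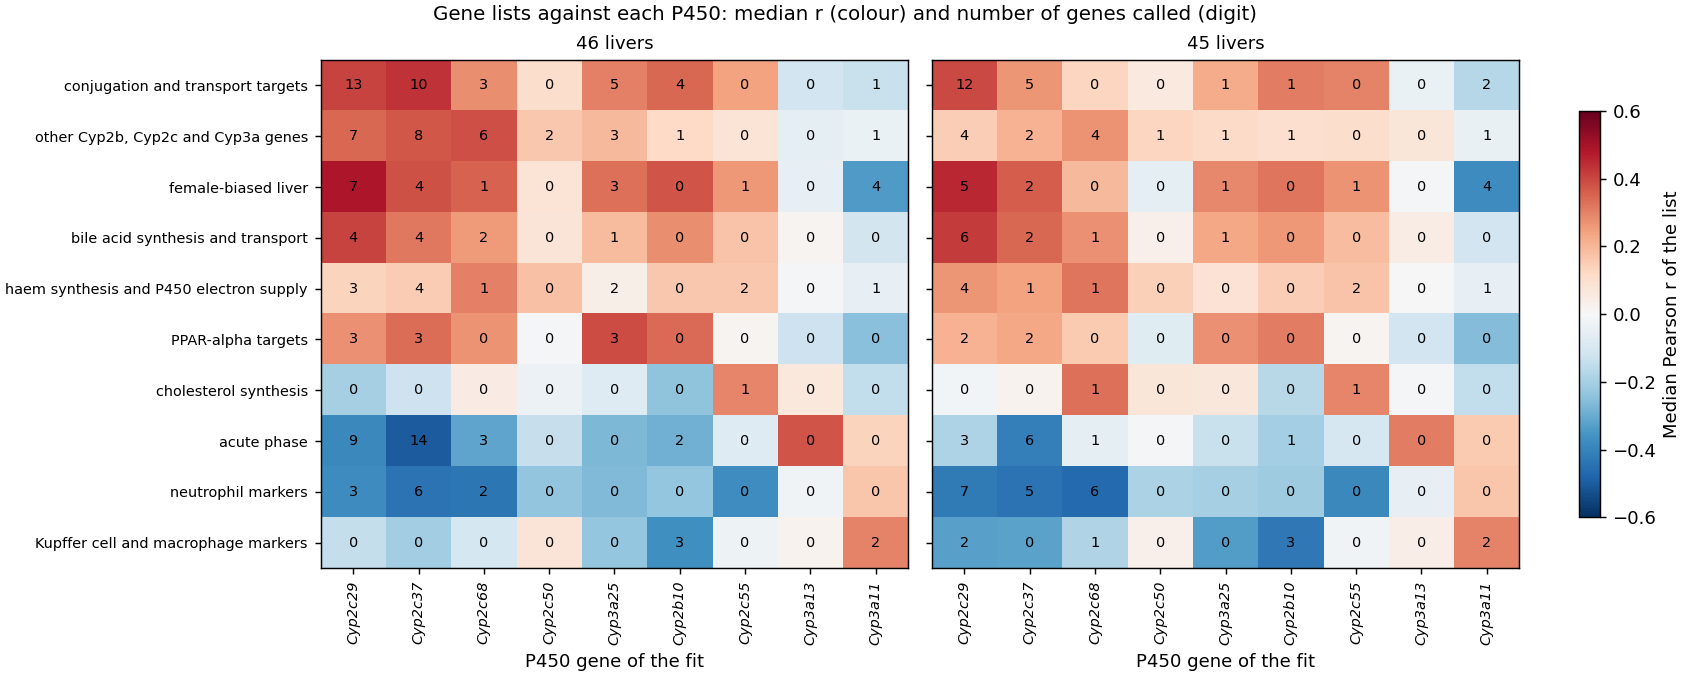
Rows are gene lists and columns the P450 gene each gene was fitted on, over 46 livers (left) and 45 livers (right, without animal 179). Colour is the median Pearson r of the list. The digit is the number of its genes called, positive and negative together. Examples are 13 and 12 genes of the conjugation and transport list with Cyp2c29, and 14 and 6 acute phase genes with Cyp2c37.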

How the data were processed

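RNA from 50 livers was read on Affymetrix arrays, 1 for each mouse. Amplification started from 100 ng with the WT Plus kit, per the labels' protocols. The extraction protocol speaks of purified cells, whereas the tissue label is liver. The deposited values are log2 signals from the RMA method; the submitters' processing notes name Expression Console, version 1.4.1. RMA normalises arrays by quantiles, which removes differences in total RNA.

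Of 41345 probe sets 23521 carried 1 symbol, 1814 several and 16010 none in the platform annotation; the brightest by median was used per gene. Neighbours came from RefSeq (GRCm38.p6), from which no coordinate or sequence is given.

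Every gene was fitted on each P450, and separately on animal number, by limma (3.58.1, under R 4.3.3; lmFit, eBayes with trend, Benjamini-Hochberg over all genes, threshold 0.05). Single relations, 95 in all, had two-sided permutation tests (100000) of r and rho with scipy 1.17.1. The fits were tested on simulated data. Counts at an unadjusted p under 0.05 are given without the share of all genes at that threshold, so no background stands beside them. Mice are separate animals by number. The fit on Por was not run. Alternatives covered livers, ranks, probe sets, level, centring, animal number, stretches and the first array component.

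The members and lists were chosen with earlier results of these data known. Named were all members, Nr1i3, Nr1i2, the 5 most positive and 3 most negative partners of Cyp2b10 and Cyp3a11 over 50 livers, the 2 closest partners of other members, and up to 4 genes per list. Chosen after values were seen were Pnpla3, Gpam, Igfbp2, Fga, Fgg, Steap4 and Lcn2 as single relations, and animal 179. The stretches of animal numbers came from an earlier segmentation of these data.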

Additional observations from a re-analysis of the deposited data

How the results depend on the processing

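The 16 called pairs became 9 without the 4 livers that stand apart, 1 without animal 179 as well, 5 on ranks and 3 once the first principal component of the arrays was regressed out (residuals). The 2675 genes called on Cyp2b10 became 135, 93, 356 and 6 in the same order. The 1 gene called on Cyp3a11 became 161 without the 4 livers, 186 without animal 179 as well, 54 on residuals, and 0 on ranks, with the animal number as covariate and with the stretch as block. The 780 genes called on the animal number became 1190 on residuals. The median SD of 0.86 became 0.52 without the 4 livers and animal 179. The causes were not tested. Other settings kept these counts within 1.5 times. Of 22 single relations picked for this check none changed sign under any setting. Of them 18 kept their side of the threshold without the 4 livers, 10 without animal 179 as well, 13 on ranks and 11 on residuals. Some called pairs outside the 22 did change sign. Cyp2b10 with Cyp2c68 went from 0.43 over 50 livers to −0.04 over 45, and Cyp2c55 with Cyp2c68 from 0.39 to −0.16 on residuals. Leaving out animal 179 was chosen after seeing the data. The fit on Por was not run, and Por was not analysed here. No paired analysis was possible because all livers form 1 group. The number of arrays and shared probes of related P450s limit what can be told apart.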

Other observations

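Bile acid genes went with Cyp2c29 outside the low livers. Of 12 measured genes of bile acid synthesis and transport, 11 were called positive with Cyp2c29 over 50 livers, 4 over 46 and 6 over 45, where 12.6%, 2.75% and 3.18% of all genes were. Baat, which conjugates bile acids with taurine and glycine, had an r of 0.84, 0.67 and 0.72, and Akr1d1, the reductase that shapes the bile acid ring, 0.85, 0.64 and 0.57. With Cyp2c37 the counts were 11, 4 and 2, where 10.5%, 1.24% and 0.618% of all genes were. With Cyp3a25 they were 11, 1 and 1, that 1 gene being Akr1d1, where 11.2%, 0.649% and 0.248% were.

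Of 11 measured cholesterol synthesis genes, 11 were called positive with Cyp2c55 over 50 livers, where 7.94% of all genes were, but 1 over 46 and over 45, where 0.532% and 0.564% were. That gene was Mvd, at an r of 0.56 in both sets. Cebpa, a liver transcription factor, was called positive with Cyp2c55 at 0.53 over 46 livers, and Ppargc1a, a coactivator of fasting metabolism, negative at −0.51.

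Clock genes were called with none of the 9 P450s over 46 livers by limma, and of 135 gene and P450 combinations 15 were positive and 11 negative at an unadjusted p under 0.05. Over 45 livers Hlf was called with Cyp2c29, at 0.47, and Bhlhe41 with Cyp2c68, at −0.51.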
